A study of Homo sapiens with 82 samples.

Results

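The genes described here bind, take up and activate fatty acids, or control the enzyme that releases them from lipoproteins. They were chosen by symbol and comprise 9 of the 51838 gene rows in the count tables: FABP1, FABP2, FABP4, FABP5, FABP6, CD36, LPL, ANGPTL4 and ACSL1. Each symbol had 1 row. The cells were HT29, an established line from a human colorectal adenocarcinoma, kept in medium with charcoal-treated serum before treatment. They received the vehicle DMSO or 10 μM of a drug dissolved in it, and RNA was collected after 24 or 48 h in 4 replicates per group. GW3965 and T0901317 are synthetic agonists of the liver X receptors (LXRA and LXRB, encoded by NR1H3 and NR1H2), and rosiglitazone is an agonist of PPARG. The question was how the genes respond to either kind of receptor at an early and a late time, across all 8 groups.

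Long-chain fatty acids are poorly soluble in water. Fatty acid-binding proteins carry them inside the cell, CD36 binds them at the cell surface, and acyl-CoA synthetases such as ACSL1 couple them to coenzyme A, which commits them to storage or oxidation. Lipoprotein lipase (LPL) sets fatty acids free from circulating triglycerides, and ANGPTL4, a secreted protein, inhibits it. FABP1, FABP2 and FABP6 are the forms typical of liver and intestine, with FABP6 binding bile acids, while FABP4 is typical of adipocytes. Several of these genes, ANGPTL4 and FABP4 among them, are textbook targets of PPAR receptors, which bind as partners of RXR to a pair of AGGTCA motifs spaced by 1 base (DR1). LXR and RXR bind the same motif with a spacing of 4 bases (DR4).

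The sequences shown are the 250 bases before the start of FABP1 and of ANGPTL4, the members with the largest fold changes among those with a promoter in the RefSeq table used, and single sites of ACSL1 and CD36. The table (GRCh38.p14) matched 6 of the 9 members with 15 promoters, namely FABP1, FABP2, FABP6, CD36, ANGPTL4 and ACSL1. FABP4, FABP5 and LPL were not matched. Windows of 250 bases before to 50 after each start were searched on both strands for AGGTCA, for AGGTCANAGGTCA (DR1) and for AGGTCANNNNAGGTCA (DR4), with up to 2 of the 12 letters of the pair allowed to differ, so that a match to either pair can contain AGGTCA itself. Capitals mark matches to DR1, all of which lie on the opposite strand, and sequences are written 5′ to 3′ on the strand of the gene.
FABP1, chr2:88128063-88128312, minus strand: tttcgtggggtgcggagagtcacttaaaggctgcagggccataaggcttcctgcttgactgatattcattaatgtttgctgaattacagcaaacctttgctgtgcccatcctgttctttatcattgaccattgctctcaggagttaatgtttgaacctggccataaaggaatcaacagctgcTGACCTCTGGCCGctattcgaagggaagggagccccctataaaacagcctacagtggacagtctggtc
ANGPTL4, chr19:8363905-8364154, plus strand: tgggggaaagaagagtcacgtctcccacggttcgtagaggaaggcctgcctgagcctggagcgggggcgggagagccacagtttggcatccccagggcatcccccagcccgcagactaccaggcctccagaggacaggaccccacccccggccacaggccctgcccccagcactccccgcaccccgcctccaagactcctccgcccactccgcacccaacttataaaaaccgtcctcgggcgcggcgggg
ACSL1, chr4:184805655-184805667, minus strand: TGACTTGTGCCCT
CD36, chr7:80638369-80638381, plus strand: TGGCCTCTGACTT
The FABP1 match lies 68 to 56 bases before the start and differs from DR1 by 2 letters, and so do those of ACSL1 and CD36, each found in 1 of several promoters of its gene. Of all 35116 promoters in the table, 2.97% held such a match to DR1, 2.34% one to DR4 and 13.8% the single motif AGGTCA. ANGPTL4 had no match to DR1 in this window. No promoter of a member held a match to DR4. The single motif AGGTCA was found in FABP1 only, within its DR1 match and at 11 to 16 bases after the start. These are matches of letters only, and binding was not measured by them.

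The 32 RNA libraries held between 21044798 and 51332656 counts, with the lowest total in replicate 2 of T0901317 at 24 h. Chi-square per degree of freedom, a measure of how far the counts of replicates differ, ran from 3.66 to 73.2 over 48 pairs. It was highest for replicates 1 and 3 of GW3965 at 24 h, and 53.1 for replicates 1 and 3 of rosiglitazone at 48 h. Results with each library left out are given at the end. Levels are counts scaled to the size of the library (CPM) after TMM scaling, a correction for differences in library composition, and they are compared for 1 gene across groups only. Differences are log2 fold changes from edgeR's quasi-likelihood test over all genes of a time point, and a gene rose or fell where its adjusted p (Benjamini-Hochberg over all genes tested) was under 0.01. The labels do not say whether replicates were separate cultures, so p-values measure the spread between these samples, which may be technical. All 12 markers of colon epithelium were above 1 CPM on average, as were 4 of 7 markers of macrophages, 0 of 4 of endothelium, 2 of 6 of fibroblasts and 1 of 6 of adipocytes. In rosiglitazone libraries at 48 h, 11 of the 12 epithelial markers were above 1 CPM. The summed level of the 12 at 24 h was 18680 to 20150 CPM in DMSO and 20640 to 20930 in GW3965 libraries. It was 20250 to 21300 in T0901317 and 21410 to 22750 in rosiglitazone libraries. At 48 h it was 18400 to 19530 CPM in DMSO and 17760 to 18510 in GW3965 libraries. In T0901317 and rosiglitazone libraries it was 15720 to 17400 and 19810 to 23510 CPM. Their part in the results was not tested. Known targets responded: ABCA1, a cholesterol exporter induced by LXR, rose with GW3965 by 4.61 and 5.77 at 24 and 48 h and with T0901317 by 3.71 and 5.12, and PLIN2, a lipid droplet protein induced by PPARs, rose with rosiglitazone by 2.79 and 4.18.

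Of the 9 members, 8 passed the filter on low counts at 24 h and 7 at 48 h. FABP4 passed at 24 h through its 4 rosiglitazone libraries alone, and FABP6 at 48 h through 9 libraries, 8 of them of GW3965 and T0901317 and 0 of DMSO. Members that enter a test through the groups in which they are high had to differ, so these are left out of the counts and medians that follow, which describe the members and support nothing. Of the other 7 at 24 h, 2 rose with GW3965 (FABP1 and ACSL1), 1 with T0901317 (ACSL1) and 3 with rosiglitazone (FABP1, ANGPTL4 and ACSL1). Of all 21781 genes tested at 24 h, 1.86%, 1.33% and 5.81% rose with these drugs. Of the other 6 at 48 h, 3 rose with GW3965 (FABP1, ANGPTL4 and ACSL1), 3 with T0901317 (FABP1, FABP5 and ACSL1) and 3 with rosiglitazone (FABP1, ANGPTL4 and ACSL1), against 16.1%, 14.0% and 12.3% of all 22470 genes. By edgeR no member fell with a drug against DMSO, nor by DESeq2. At an unadjusted edgeR p under 0.05 the 1 lower value was that of FABP2 with rosiglitazone at 48 h (adjusted p = 0.0924). Of all 21781 genes at 24 h, 595, 315 and 2687 rose or fell with GW3965, T0901317 and rosiglitazone, and 406, 289 and 1266 of these rose. Of all 22470 at 48 h, 7560, 6742 and 5720 rose or fell, and 3621, 3135 and 2771 of these rose. The median log2 fold change of these members with GW3965, T0901317 and rosiglitazone was 1.22, 0.49 and 0.30 in the 24 h fit and 1.60, 1.05 and 0.19 in the 48 h fit, while that of all genes tested lay between -0.02 and 0.01. At 24 h these were the values of ANGPTL4, FABP2 and CD36 in turn (edgeR adjusted p = 0.0283, 0.864 and 0.850). FABP2 and CD36 had few counts, and these values had an SE of 0.69 and 0.84. At 48 h each median lay midway between the value of CD36 and that of ACSL1 or ANGPTL4. Each set of 3 drugs was compared with 1 set of 4 DMSO libraries, so the counts are not independent of each other. Between the times, 2 members had a larger response at 48 than at 24 h with GW3965 (ANGPTL4 and ACSL1) and 2 with T0901317 (FABP5 and ACSL1), against 9.96% and 7.49% of 23140 genes in the fit of both times, and with rosiglitazone 0 had by edgeR or DESeq2, against 1.38%. At an unadjusted edgeR p under 0.05, the rosiglitazone response of ANGPTL4 was larger at 48 h (adjusted p = 0.0396) and that of FABP5 was smaller (adjusted p = 0.181). In bulk RNA, fewer cells that express a gene and less RNA per cell cannot be told apart.

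**Figure D1:**
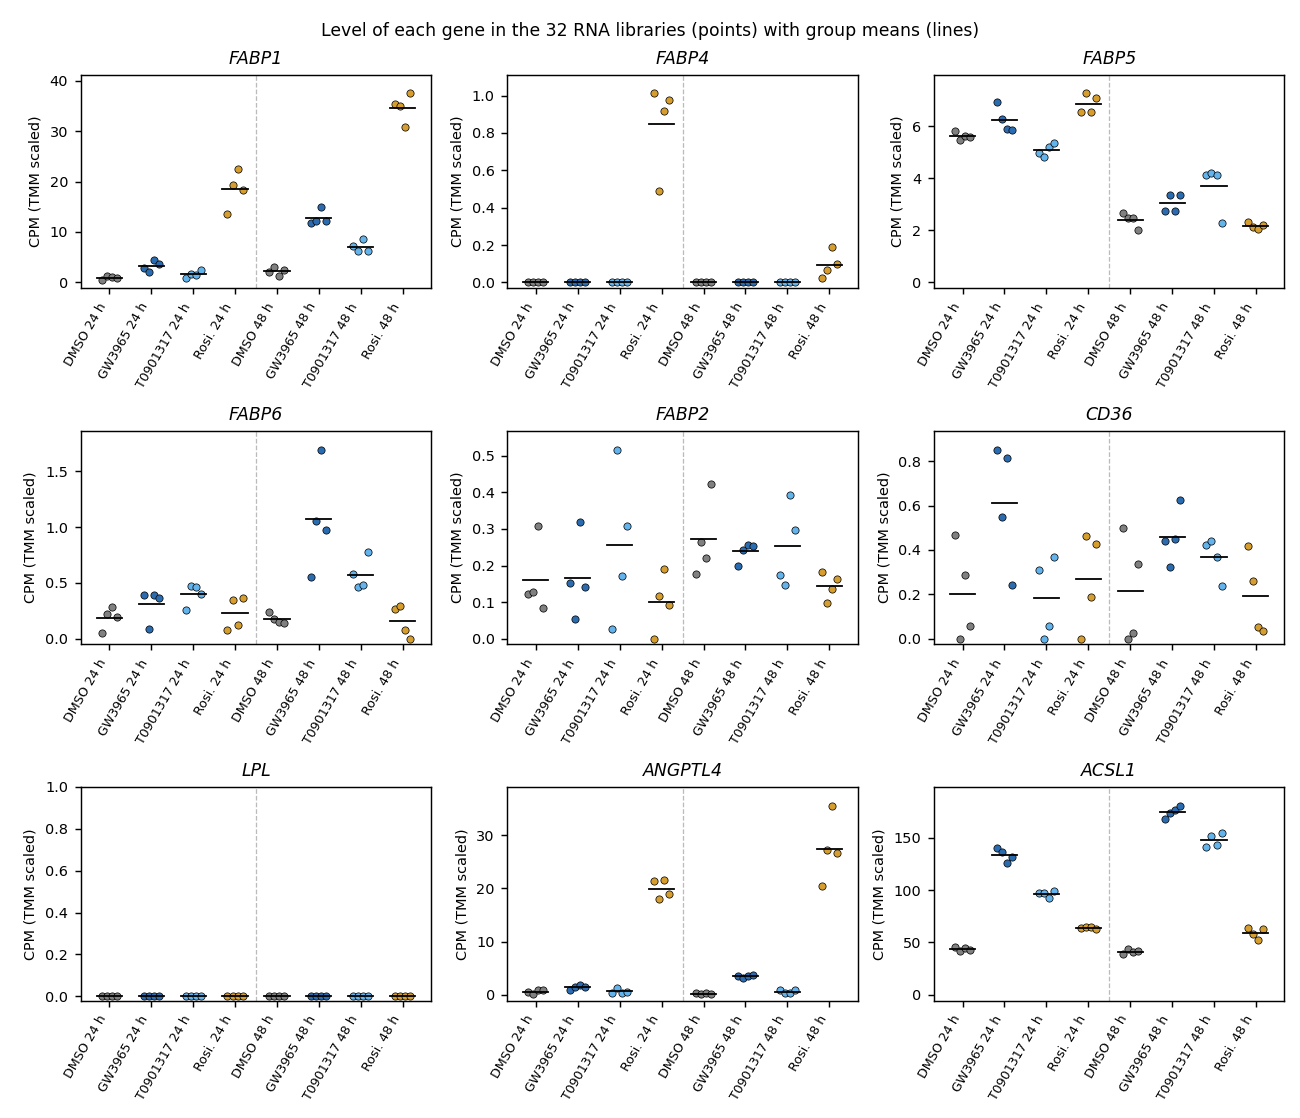
Level of each of the 9 genes in CPM after TMM scaling (y axis, linear, with its own range per panel) in the 8 groups (x axis). Points are the 4 libraries of a group, horizontal lines are group means, and a dashed line separates 24 from 48 h. ANGPTL4 and FABP1 are highest with rosiglitazone at both times, ACSL1 with GW3965 and T0901317, FABP4 is above 0 in rosiglitazone libraries only, and LPL is at 0 in all 32 libraries.

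ANGPTL4 (ENSG00000167772.6), the secreted inhibitor of LPL, was low in vehicle cells and was raised mainly by rosiglitazone. Its response to GW3965 was smaller, and was larger at 48 than at 24 h. Its counts in the DMSO libraries were 18, 6, 38 and 30 at 24 h and 11, 5, 12 and 8 at 48 h. With rosiglitazone they were 823, 621, 683 and 621 at 24 h and 782, 842, 1304 and 813 at 48 h. Every rosiglitazone library therefore lay far above every DMSO library. The level was 19.9 ± 1.80 CPM (SD, n = 4) against 0.594 ± 0.337 at 24 h and 27.5 ± 6.18 against 0.247 ± 0.0780 at 48 h, a 32.4-fold and a 107-fold difference in the fit. The rosiglitazone levels of the 2 times overlapped, with adjusted p = 0.0557 for their difference in edgeR. This comparison of rosiglitazone between the times, also used for FABP1 and FABP5, was added after the values were seen. Of all 23140 genes, 10099 rose or fell in it.

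With GW3965, ANGPTL4 counts were 45, 53, 74 and 74 at 24 h and 164, 116, 166 and 196 at 48 h. All of these libraries were above the DMSO libraries of their time in CPM, narrowly at 24 h. ANGPTL4 rose at 48 h (log2 fold change 3.81, SE 0.35, edgeR adjusted p = 3.91e-08) and had a value of 1.22 at 24 h that missed the threshold (SE 0.32, adjusted p = 0.0283). The response to GW3965 was larger at 48 than at 24 h by 2.59 on the log2 scale (SE 0.55, interaction test in edgeR, adjusted p = 0.000408). The vehicle level is part of that difference, since the DMSO means went from 0.594 to 0.247 CPM between the times (adjusted p = 0.0286).

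T0901317, the other LXR agonist, gave ANGPTL4 counts of 14, 26, 15 and 20 at 24 h and 46, 11, 12 and 50 at 48 h. The 48 h libraries fell into a lower and a higher pair, and the lower pair overlapped the DMSO libraries. Neither time passed the test against DMSO (log2 fold changes -0.02 and 1.31, edgeR adjusted p = 0.997 and 0.0230). Compared directly at the same dose, GW3965 gave more ANGPTL4 than T0901317 at 48 h by 2.50 (SE 0.27, adjusted p = 1.26e-05), and at 24 h the difference of 1.24 (SE 0.33) had an adjusted p of 0.0672. Rosiglitazone exceeded GW3965 by 3.80 at 24 h and 2.94 at 48 h (adjusted p = 8.89e-10 and 6.23e-10). In the order of group means, both rosiglitazone groups came first and overlapped each other, GW3965 at 48 h lay apart below them, and GW3965 at 24 h lay apart below that. The T0901317 groups and both DMSO groups followed, and from GW3965 at 24 h downwards each group overlapped its neighbour.

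FABP1 (ENSG00000163586.5), the liver form that is also made by enterocytes, had its highest means with rosiglitazone, then GW3965, then T0901317 at each time. Its counts at 24 h were 22, 41, 45 and 30 in the DMSO libraries, 129, 75, 179 and 180 in those of GW3965, 33, 36, 54 and 81 in those of T0901317, and 522, 672, 710 and 602 in those of rosiglitazone. The T0901317 libraries overlapped the DMSO libraries, while those of GW3965 and rosiglitazone lay above them. FABP1 rose with GW3965 (log2 fold change 1.80, SE 0.30, edgeR adjusted p = 0.000573) and with rosiglitazone (4.30, SE 0.28, adjusted p = 1.25e-09), a 19.7-fold difference for the latter. With T0901317 the value was 0.81 (SE 0.33, adjusted p = 0.308), and the difference between GW3965 and T0901317 at 24 h was 0.99 (SE 0.28, adjusted p = 0.0898).

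At 48 h, FABP1 counts were 68, 107, 50 and 88 in DMSO, 530, 453, 700 and 628 in GW3965, 374, 255, 395 and 312 in T0901317, and 1350, 1078, 1131 and 1145 in rosiglitazone libraries. No library of one treatment overlapped another in CPM. All 3 drugs raised it, by 2.54 (SE 0.18), 1.69 (SE 0.18) and 3.96 (SE 0.18), with edgeR adjusted p = 1.43e-09, 4.29e-07 and 3.94e-12. GW3965 exceeded T0901317 by 0.85 (SE 0.15, adjusted p = 0.000874), and rosiglitazone exceeded GW3965 by 1.42 (SE 0.15, adjusted p = 9.89e-08). FABP1 also rose with time in vehicle cells, from 0.940 ± 0.328 to 2.21 ± 0.816 CPM (SD, n = 4; log2 fold change 1.24, adjusted p = 0.000913), and none of the 3 drug responses passed the interaction test between the times (adjusted p = 0.141, 0.109 and 0.670). Its highest level was 34.6 ± 2.78 CPM with rosiglitazone at 48 h, above rosiglitazone at 24 h (18.4 ± 3.69) by 0.91 on the log2 scale (SE 0.19, edgeR adjusted p = 0.000126). In the order of means, rosiglitazone at 24 h overlapped GW3965 at 48 h, which was followed without overlap by T0901317 at 48 h and GW3965 at 24 h, and the lower groups overlapped their neighbours.

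FABP4 (ENSG00000170323.4), the adipocyte form, was counted in rosiglitazone libraries only. Its counts were 39, 17, 29 and 32 at 24 h and 1, 2, 7 and 3 at 48 h, and 0 in all 24 other libraries. The level at 24 h, 0.848 ± 0.242 CPM (SD, n = 4), was 42.4-fold the DMSO floor, taken as 3 counts over the 4 DMSO libraries. At 48 h, 0.0949 ± 0.0702 CPM from 13 counts, it was 4.59-fold that floor. The error of the rosiglitazone counts is not part of these ratios. Such floors and intervals cover counting error only. No call is given for FABP4, since it entered the 24 h fit through the rosiglitazone libraries alone and was below the filter at 48 h. With no filter on low counts, rosiglitazone against DMSO at 48 h missed the threshold (edgeR adjusted p = 0.0261). Its 4 rosiglitazone libraries at 48 h were all below the 4 at 24 h, from a mean of 0.848 to 0.0949 CPM.

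Of 6 markers of adipocytes, 1 moved with the drugs. PLIN1, the lipid droplet coat protein of adipocytes, rose with rosiglitazone by 1.82 and 2.53 on the log2 scale at 24 and 48 h, and with GW3965 at 48 h, where all libraries were above those of DMSO, its value was 0.61 (edgeR adjusted p = 0.0180). The summed level of the 6 was 0.641 to 1.23 CPM in DMSO and 2.31 to 3.61 CPM in rosiglitazone libraries at 24 h, and 0.621 to 1.30 CPM in DMSO, 1.38 to 1.82 CPM in GW3965 and 5.15 to 6.40 CPM in rosiglitazone libraries at 48 h. PLIN1 made up most of each sum. CIDEA was at 0 in all 32 libraries, and ADIPOQ, the gene of the hormone adiponectin, had a mean of 0.0209 CPM in DMSO and 0.00790 CPM in rosiglitazone libraries at 24 h and was at 0 in every group at 48 h. The part of these markers in the results on FABP4 and ANGPTL4 was not tested.

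Of 7 markers of macrophages, some moved with the LXR agonists at 48 h. FABP1, FABP6 and ACSL1 were also above DMSO with these drugs at 48 h, and FABP1 was highest with rosiglitazone. The summed level of the 7 markers at 24 h was 464 to 543 CPM in DMSO and 471 to 531 CPM in GW3965 libraries. It was 497 to 585 CPM in T0901317 and 561 to 604 CPM in rosiglitazone libraries. At 48 h it was 470 to 492 CPM in DMSO, 558 to 613 CPM in GW3965, 695 to 767 CPM in T0901317 and 467 to 509 CPM in rosiglitazone libraries. LYZ, CD68 and CD14 rose with GW3965 by 0.27, 0.88 and 1.94 and with T0901317 by 0.61, 0.74 and 2.54, and CD14 went from a mean of 0.597 CPM in DMSO to 2.32 and 3.52 CPM. At 24 h, CD14 rose with T0901317 by 0.86 and LYZ with rosiglitazone by 0.26, and at 48 h CD68 rose with rosiglitazone by 0.55. The pan-leukocyte marker PTPRC was at 0.0384 CPM or less in the mean of every group, and CD163 at 0.0151 CPM or less. These genes were named after their values were seen, and their part in the results on the members was not tested.

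ACSL1 (ENSG00000151726.8), which activates long-chain fatty acids, was well above the counting limit in every library and was raised most by the LXR agonists, while ANGPTL4 and FABP1 were highest with rosiglitazone. At 24 h its counts were 1880, 1315, 1885 and 1540 in DMSO, 6399, 4968, 5122 and 6535 in GW3965, 3763, 2063, 3214 and 3228 in T0901317, and 2462, 2238, 2058 and 2067 in rosiglitazone libraries. In CPM, none of these groups overlapped. The levels were 44.0 ± 1.79, 133 ± 5.90, 96.5 ± 2.87 and 64.1 ± 0.863 CPM (SD, n = 4). ACSL1 rose by 1.60, 1.13 and 0.54 on the log2 scale (SE 0.05 each) with edgeR adjusted p = 2.49e-14, 7.91e-12 and 1.48e-07, and the rise with rosiglitazone was 1.45-fold.

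At 48 h the ACSL1 level was 41.2 ± 2.00 CPM in DMSO, 174 ± 5.35 in GW3965, 147 ± 6.53 in T0901317 and 59.3 ± 5.44 in rosiglitazone libraries (SD, n = 4), again with no overlap. The rises were 2.08 (SE 0.07), 1.84 (SE 0.07) and 0.50 (SE 0.06), with adjusted p = 1.51e-14, 9.71e-14 and 4.92e-06 in edgeR. Rosiglitazone gave less ACSL1 than GW3965 by -1.06 and -1.57 at 24 and 48 h (adjusted p = 9.71e-12 and 2.95e-13). The responses to GW3965 and T0901317 were larger at 48 h by 0.48 (SE 0.08, adjusted p = 1.10e-05) and 0.71 (SE 0.08, adjusted p = 2.01e-08), and that to rosiglitazone differed by -0.02 (SE 0.08, adjusted p = 0.935). GW3965 exceeded T0901317 at 24 h by 0.46 (SE 0.05, adjusted p = 1.12e-05), and at 48 h the difference of 0.24 (SE 0.06) had an adjusted p of 0.0123. Over the 8 groups, means ran from GW3965 at 48 h down through T0901317 at 48 h, GW3965 at 24 h and T0901317 at 24 h to rosiglitazone and DMSO, and overlaps between neighbours were seen only between the 2 times of rosiglitazone and of DMSO. In RefSeq, from start to end of each gene, ACSL1 overlaps SLED1 and LOC105377587, and FABP6 overlaps FABP6-AS1. FABP4 overlaps LOC101927118 and FABP5 overlaps LNMICC. Whether exons of these pairs overlap was not examined. The strand setting of the counting is not given in the sources used here, so reads from any stretch they share cannot be told apart.

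**Figure D2:**
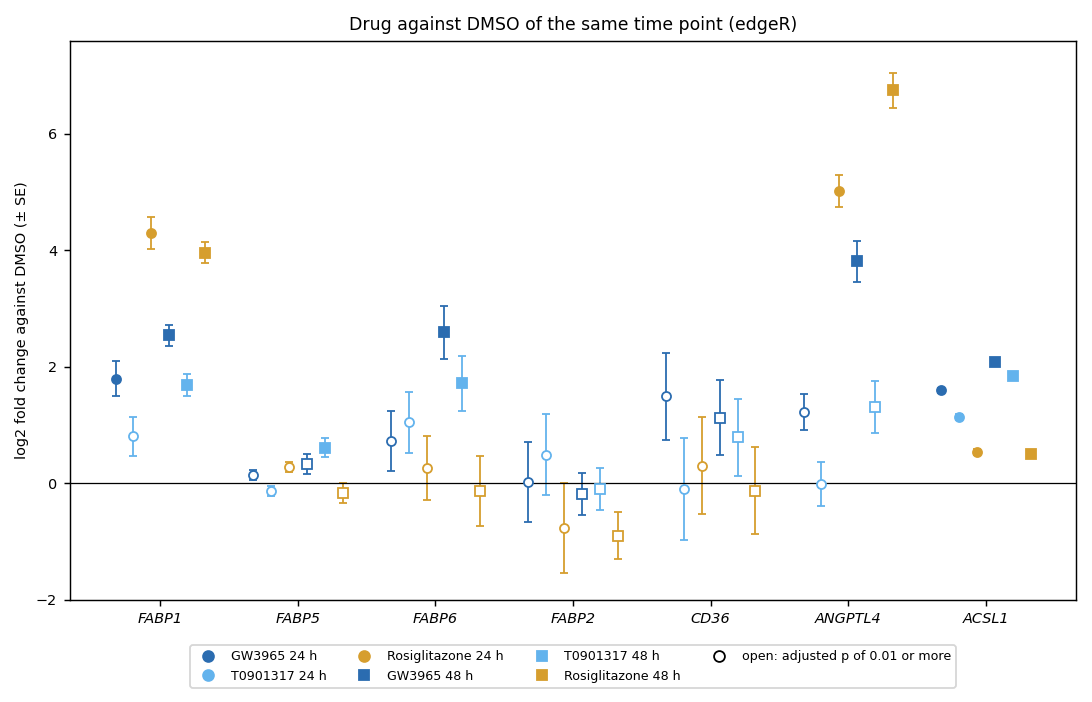
Log2 fold change against DMSO of the same time point (y axis, points, with bars for the standard error) for the 7 members tested at both times (x axis). Colour gives the drug, circles are 24 h, squares are 48 h, and open symbols had an adjusted p of 0.01 or more. Rosiglitazone gives the highest values for ANGPTL4 (5.02 and 6.75) and FABP1 (4.30 and 3.96), GW3965 those for ACSL1 (1.60 and 2.08), and all symbols of FABP2 and CD36 are open.

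FABP6 (ENSG00000170231.11), the ileal bile acid-binding protein, was near the limit of counting and had its highest means with the LXR agonists at 48 h. Its counts at 48 h were 8, 6, 6 and 5 in DMSO, 25, 39, 79 and 50 in GW3965, 30, 19, 22 and 39 in T0901317, and 10, 9, 3 and 0 in rosiglitazone libraries. Every GW3965 and T0901317 library exceeded every DMSO and rosiglitazone library. The rise was 2.60 with GW3965 (SE 0.45, edgeR adjusted p = 0.000105) and 1.72 with T0901317 (SE 0.48, adjusted p = 0.00684), and the value with rosiglitazone was -0.13 (adjusted p = 0.891). Rosiglitazone was below GW3965 by -2.73 (adjusted p = 4.90e-05) and below T0901317 by -1.85 (adjusted p = 0.00299). FABP6 had passed the filter on low counts at 48 h mainly through the LXR agonists' libraries. These tests, those against rosiglitazone included, therefore describe the libraries and support nothing. Both calls against DMSO were also made with no filter, on the same values. The T0901317 call was lost on leaving out any of 6 of the 8 DMSO and T0901317 libraries at 48 h, all except replicates 2 and 3 of T0901317, with adjusted p up to 0.0255, and with a replicate block (adjusted p = 0.0125).

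At 24 h, FABP6 counts ran from 2 to 12 in DMSO, 3 to 18 in GW3965, 10 to 16 in T0901317 and 3 to 12 in rosiglitazone libraries, and no drug passed the test (edgeR adjusted p between 0.438 and 0.794). The response to GW3965 differed between 48 and 24 h by 1.87 (SE 0.74), which missed the threshold (adjusted p = 0.0536). Over the 8 groups FABP6 means ran from 1.07 ± 0.471 CPM with GW3965 at 48 h to 0.159 ± 0.141 CPM with rosiglitazone at 48 h (SD, n = 4), and each group overlapped the next.

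FABP5 (ENSG00000164687.6), the form first described in skin and made in many epithelia, differed mainly by time. Its counts in DMSO were 238, 171, 237 and 199 at 24 h and 91, 84, 102 and 71 at 48 h. The 24 h libraries of each treatment were all above the 48 h libraries of every treatment. FABP5 fell between the times in vehicle cells by 1.22 on the log2 scale (SE 0.13, edgeR adjusted p = 3.05e-09) and in rosiglitazone-treated cells by 1.66 (SE 0.13, adjusted p = 3.23e-12). Time cannot be told apart from anything else that differed between the 2 harvests. Of all 23140 genes in the fit across both times, 38.6% changed between the DMSO groups, and of the 8 members in it FABP1 rose and FABP5 fell.

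Against DMSO, FABP5 rose with T0901317 at 48 h, where its counts were 215, 172, 190 and 115, by 0.61 (SE 0.17, adjusted p = 0.00587). Replicate 4 lay among the DMSO libraries in CPM and the other 3 lay above them. This call was lost on leaving out any of 6 of the 8 DMSO and T0901317 libraries at 48 h, all except DMSO replicate 1 and T0901317 replicate 4, with adjusted p up to 0.0263. Without T0901317 replicate 4, the library that stands apart, the value was 0.78 (adjusted p = 7.25e-05). The T0901317 response at 48 h exceeded that at 24 h by 0.75 (SE 0.18, adjusted p = 0.00223), and FABP5 was lower with rosiglitazone than with T0901317 at 48 h by -0.78 (SE 0.17, adjusted p = 0.000530) and higher at 24 h by 0.42 (SE 0.08, adjusted p = 0.00119), a call that was lost with scaling by library size alone (0.37, adjusted p = 0.0106). The order of means ran from rosiglitazone at 24 h (6.86 ± 0.381 CPM) to rosiglitazone at 48 h (2.17 ± 0.119 CPM, SD, n = 4). Neighbours in that order overlapped between rosiglitazone and GW3965 at 24 h, T0901317 and GW3965 at 48 h, and DMSO and rosiglitazone at 48 h, and the others lay apart.

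Reads of FABP5 are shared with near-identical pseudogenes. The tables held 14 rows of FABP5 pseudogenes, 10 of them with counts, and the FABP5 row took a median of 21.4% of the counts of all these rows (17.0% to 29.0% over 32 libraries) while FABP5P7 took 57.2%. How the authors' counting split such reads is not given in the sources used here, so the level of FABP5 is uncertain. FABP5P7 rose with GW3965 by 0.60 (adjusted p = 0.000963) and with T0901317 by 0.80 (adjusted p = 6.29e-05) at 48 h. With FABP5 summed with its pseudogene rows, an alternative chosen after the counts were seen, the rise with T0901317 at 48 h was 0.75 (edgeR adjusted p = 3.17e-05), that with GW3965 was 0.53 and passed the threshold (adjusted p = 0.000910, against 0.117 for FABP5 alone), and the fall with time in DMSO was -1.38 (adjusted p = 7.62e-13).

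**Figure D3:**
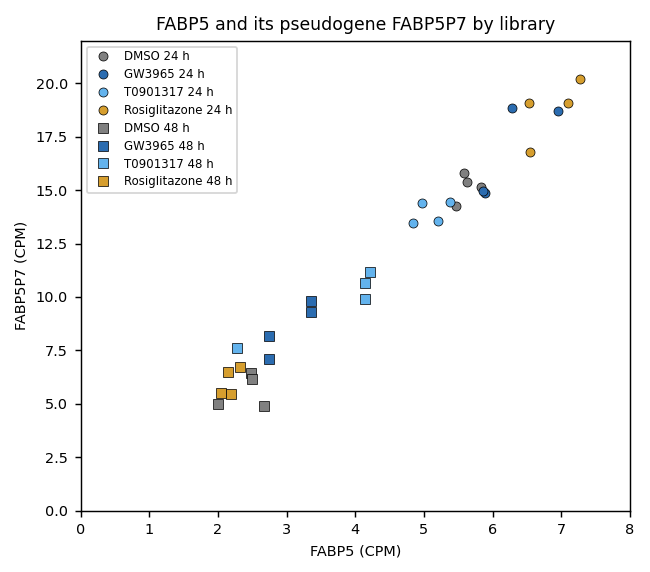
Level of the FABP5 row (x axis, CPM) and of the FABP5P7 row (y axis, CPM) in the 32 libraries, with a colour for each treatment, circles for 24 h and squares for 48 h. The rows rise together, and all 24 h libraries lie above all 48 h libraries on both axes.

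FABP2 (ENSG00000145384.3) and CD36 (ENSG00000135218.13) were counted at low levels and passed no test against DMSO, between drugs or between times. FABP2, the intestinal form, had between 0 and 18 counts per library, and its group means lay between 0.0991 and 0.271 CPM. CD36 ranged from 0 to 39 counts, with 19, 0, 12 and 2 in DMSO at 24 h and 17, 0, 1 and 12 in DMSO at 48 h, so that libraries of one group differed by more than the groups did. Its highest mean was with GW3965 at 24 h (counts 39, 20, 33 and 12), 1.5 above DMSO on the log2 scale (SE 0.75, edgeR adjusted p = 0.352). At 48 h GW3965 gave 1.13 (SE 0.65, adjusted p = 0.166) and T0901317 0.79 (SE 0.66, adjusted p = 0.361). For FABP2 the values against DMSO lay between -0.90 with rosiglitazone at 48 h and 0.49 with T0901317 at 24 h. In the order of means, every group of both genes overlapped its neighbour.

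LPL (ENSG00000175445.9), the lipase that ANGPTL4 inhibits, had 0 counts in all 32 libraries, which allows a level of up to 0.0159 to 0.0236 CPM per group (3 counts over the 4 libraries of a group). It was below the filter and entered no test.

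Other genes of the pathway were taken from 3 lists, whose counts are descriptions and were not tested as sets. Of all 21781 genes at 24 h, 595, 315 and 2687 rose or fell with GW3965, T0901317 and rosiglitazone, and 406, 289 and 1266 of these rose. Of all 22470 at 48 h, 7560, 6742 and 5720 rose or fell, and 3621, 3135 and 2771 of these rose. Of 21 other fatty acid transporters and acyl-CoA synthetases, 16 were tested. At 24 h, 5 rose with GW3965, 5 with T0901317 and 6 with rosiglitazone, where 1 fell, and at 48 h 9 rose and 1 fell with GW3965, 8 rose and 1 fell with T0901317, and 7 rose and 1 fell with rosiglitazone. The list medians for the same drugs were 0.27, 0.18 and 0.19 at 24 h and 0.54, 0.27 and 0.24 at 48 h. ACSS2, which makes acetyl-CoA from acetate, rose with GW3965 by 1.16 and 2.36 and with T0901317 by 1.09 and 2.68 at 24 and 48 h, and fell with rosiglitazone at 24 h by 0.55. ACSL3, a long-chain synthetase of lipid droplets, rose by 1.10 with GW3965 at 24 h, and SLC27A3 and SLC27A2, members of the fatty acid transport protein family, rose by 1.17 and 1.02 with GW3965 at 48 h. With rosiglitazone, ACSL5, the synthetase typical of intestine, rose by 1.15 and 1.27, and ACSM3, a medium-chain synthetase, by 1.0 and 1.37. The rises of ACSL5 with GW3965 were 0.49 and 0.45. Among changes under 2-fold, in genes named after their values were seen, CAV1 and MFSD2A rose with both LXR agonists at 24 h, ACSBG1 fell with both at 48 h and rose with rosiglitazone at both times, and SLC27A3 fell with rosiglitazone at 48 h.

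Of 20 partners of LPL and members of the ANGPTL family, 14 were tested. At 24 h, 1 rose with GW3965, 2 with T0901317 and 2 with rosiglitazone, where 1 fell, and at 48 h 4 rose and 4 fell, 5 rose and 3 fell, and 3 rose and 2 fell. Of all 21781 genes at 24 h, 595, 315 and 2687 rose or fell with these drugs, and of all 22470 at 48 h, 7560, 6742 and 5720. List medians were 0.09, 0.28 and 0.12 at 24 h and 0.33, 0.19 and 0.13 at 48 h. LMF1, which is needed for LPL to mature, rose by 1.06 with GW3965 at 48 h. VLDLR, a lipoprotein receptor, rose by 1.62, 1.5 and 1.89 at 24 h with GW3965, T0901317 and rosiglitazone in turn. At 48 h it rose by 1.21 under rosiglitazone and fell with GW3965 by 0.59 and with T0901317 by 0.83. Its DMSO level had by then gone from 2.01 to 19.9 CPM. The other genes called, named after their values were seen, were LIPG (higher with T0901317 and lower with rosiglitazone at 24 h, lower with both LXR agonists at 48 h), PCSK6 (higher with rosiglitazone at both times), LMF2, LRP1 and SDC1 (higher with both LXR agonists at 48 h), ANGPTL6 (higher with T0901317 at 48 h), FURIN (lower with both at 48 h) and SEL1L (lower with GW3965 at 48 h). With rosiglitazone at 48 h LRP1 was also higher, and ANGPTL6 and SDC1 were lower. LMF1 was also higher with T0901317 at 48 h.

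Of 11 other intracellular lipid-binding proteins, 3 were tested at 24 h and 4 at 48 h. None rose and 1 fell with rosiglitazone at 24 h, 1 rose with each LXR agonist at 48 h, and 2 fell with rosiglitazone at 48 h, none of them by 2-fold. These were CRABP2, a carrier of retinoic acid, in each case, and RBP5, a carrier of retinol, with rosiglitazone at 48 h, named after their values were seen. Counts of all genes that rose or fell are those given with the first list. List medians were -0.18, -0.12 and -0.69 at 24 h and 0.63, 0.56 and 0.07 at 48 h.

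**Figure D4:**
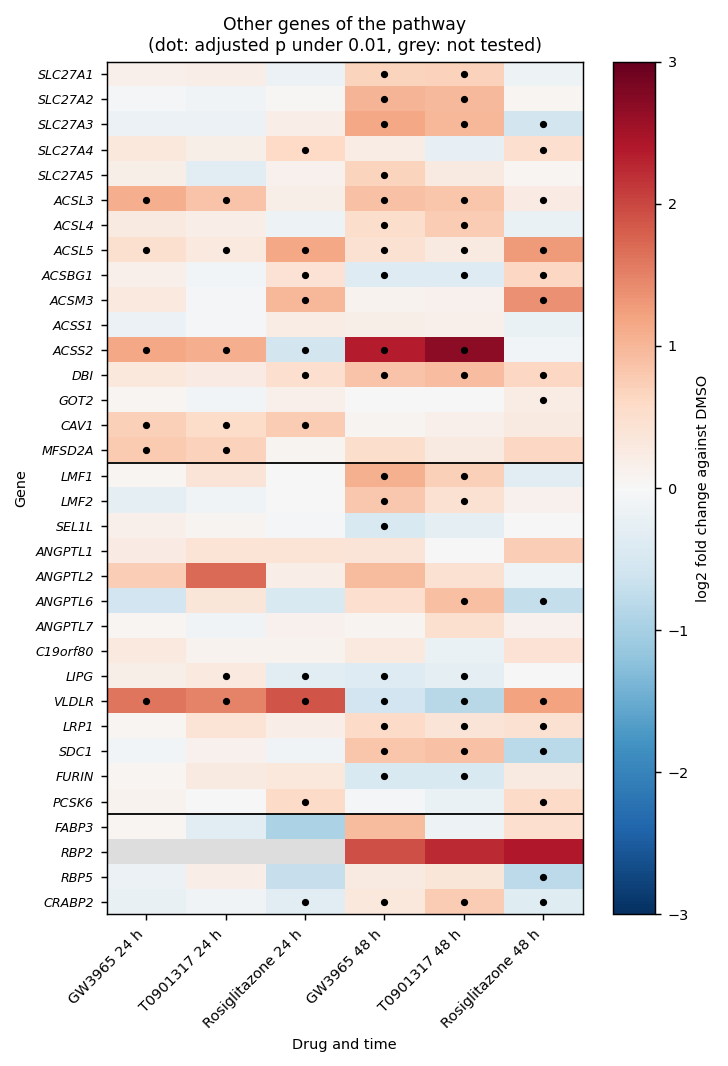
Log2 fold change against DMSO (colour scale) of the 34 other pathway genes tested at 48 h, by drug and time (x axis), in 3 blocks of rows divided by lines: transporters and acyl-CoA synthetases, LPL partners and ANGPTL family, and other lipid-binding proteins. A dot marks an adjusted p under 0.01 and grey marks a gene not tested. Among cells with a dot, those of ACSS2 are darkest with the LXR agonists at 48 h, and ACSL5 and ACSM3 rise with rosiglitazone at both times.

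The receptors were measured in the same libraries. Of 8 receptor genes, 7 were tested. At 24 h, 1 rose with each LXR agonist, and 2 rose and 1 fell with rosiglitazone, and at 48 h 3 rose and 3 fell with GW3965, 2 rose and 3 fell with T0901317, and 3 rose and 1 fell with rosiglitazone. NR1H3, which encodes LXRA, rose with every drug at both times, by 1.10 and 1.65 with GW3965, 0.74 and 1.21 with T0901317, and 0.81 and 1.09 with rosiglitazone at 24 and 48 h. PPARD, a PPAR made in most tissues, rose with rosiglitazone at 48 h by 1.94 and at 24 h by 0.94, and fell at 48 h with GW3965 by 0.55 and with T0901317 by 0.74. PPARG fell with rosiglitazone by 0.50 and 0.47, and at 48 h with GW3965 by 1.08 and with T0901317 by 0.71. NR1H2, which encodes LXRB, fell at 48 h with GW3965 by 0.25 and with T0901317 by 0.49 and rose with rosiglitazone by 0.26. Known targets of either kind of receptor were also called with agonists of the other. Of 6 PPAR targets, 6 rose with rosiglitazone at each time. With GW3965 and T0901317, 4 and 1 rose at 24 h and 5 and 4 at 48 h. Of 6 LXR targets, 6 rose with both LXR agonists at each time. With rosiglitazone, 4 of them rose and 1 fell at 24 h and 5 rose at 48 h. Of all 21781 genes at 24 h, 595, 315 and 2687 rose or fell with GW3965, T0901317 and rosiglitazone. Of all 22470 at 48 h, 7560, 6742 and 5720 did. The part of the receptors in these calls was not tested.

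Genes most like a member in level over the 32 libraries were ranked by Pearson's r of log2 CPM among 14307 genes, for the 3 members with a mean log2 CPM of at least 1. The libraries share groups and times, so these are descriptions of the group pattern. FABP1 was closest to PRSS12 (r = 0.95), a secreted protease, PDK4 (0.946), a kinase that restrains pyruvate oxidation, and ACSL5 (0.935). FABP5 was closest to FABP5P7 (0.976), CFL1 (0.97), an actin-binding protein, and BUB1B (0.967), a spindle checkpoint kinase. ACSL1 was closest to SCD (0.977), the stearoyl-CoA desaturase, AL139819.1 (0.97) and SCDP1 (0.966), a pseudogene of SCD that may share its reads. By Spearman's rho, 1 of the top 3 genes was the same for FABP1, 2 for FABP5 and 1 for ACSL1.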

How the data were processed

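RNA of HT29 cells was measured by paired-end sequencing of Nextera libraries of mRNA in 32 libraries, 4 for each of 8 groups, and groups were taken from the labels. The authors deposited whole-number counts per Ensembl gene in 1 table per time point, without normalization. TopHat, Cufflinks and hg19 are named in the submitters' processing notes. For the counting program, its strand setting and the annotation, each was not given in the sources used here. The number of per-sample columns left unused was 0.

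The 16 libraries of each time were fitted in edgeR 4.0.16 (R 4.3.3, limma 3.58.1), with its low-count filter (minimum count 10), TMM scaling, the quasi-likelihood F test and p-values adjusted over all genes by Benjamini and Hochberg's method. The test covered 21781 genes at 24 h, 22470 at 48 h and 23140 in the fit of all 32 libraries, which gave the interactions and the comparisons between times. Among these, the comparison of rosiglitazone between the times was added after the values were seen. A gene was called at an adjusted p under 0.01, and apart from that at a fold of at least 2. A standard error is the size of the log2 fold change divided by the square root of F. The methods were tested on simulated data. Alternatives covered DESeq2 1.42.0, scaling, the filter, the libraries in the fit, a replicate block, a fold of 1.5 and leaving out single libraries. Depth limits members with few counts, as given with their values.

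The members and the lists were chosen with earlier results of these data known. All members are named. From the other lists, genes are named that passed the test with a fold of at least 2 for a drug against DMSO, at most 3 per list and contrast, with PPARG, NR1H2, NR1H3 and known targets. 1 item of the lists is not reported here and was left out of their counts and medians. PLIN1, other markers and the list genes so marked were named after their values were seen. Promoter sequences are those of RefSeq (GRCh38.p14), read with Python 3.11.15, and plots were drawn with matplotlib 3.10.9. Peak lists of ChIP-seq (34 files, hg19) were not used here, since the reference given is of another build.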

Additional observations from a re-analysis of the deposited data

Results flagged for a closer look

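Of 58 groups of 4 libraries with any spread in a member, 3 had a library farther from the others than a Dixon test at 95% allows, and chance gives about 1 in 20. FABP1 with GW3965 at 48 h had its highest library at 15 CPM (gap over range 0.835), FABP5 with T0901317 at 48 h had its lowest library, replicate 4, at 2.28 CPM (0.959), and FABP6 with GW3965 at 24 h had its lowest library, replicate 2, at 0.0821 CPM (0.896), from 3 counts.

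In 4 cases the response to a drug differed between the time points by the interaction test. The response at 48 h exceeded that at 24 h by 2.59 on the log2 scale for ANGPTL4 with GW3965, by 0.48 and 0.71 for ACSL1 with GW3965 and T0901317, and by 0.75 for FABP5 with T0901317. Of all genes tested, 9.96% had a larger response to GW3965 at 48 h and 7.49% to T0901317.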

How the results depend on the processing

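The alternatives left every call of FABP1 and ACSL1 against DMSO, and those of ANGPTL4 with rosiglitazone and with GW3965 at 48 h, on the same side of the threshold and in the same direction. ANGPTL4 with GW3965 at 24 h passed with no filter on low counts (adjusted p = 0.00638), ANGPTL4 with T0901317 at 48 h and ACSL1 in GW3965 against T0901317 at 48 h passed in DESeq2 (adjusted p = 0.00870 and 0.000879), and FABP5 with T0901317 at 48 h did not pass when only its own groups were fitted (adjusted p = 0.0145). Values that changed sign had passed no test. ANGPTL4 with T0901317 at 24 h was 0.0829 in DESeq2, 0.0349 with only the groups of the contrast and 0.000443 with the replicate block, CD36 in DMSO 48 h against 24 h was 0.0736 in DESeq2, FABP2 with GW3965 at 24 h was -0.0317 with library size scaling, and FABP5 with rosiglitazone at 48 h was 0.0307 when summed with its pseudogenes. FABP5 in rosiglitazone against T0901317 at 24 h lost its call with library size scaling (adjusted p = 0.0106). Scaling by library size moved the median of all genes by -0.18 for rosiglitazone against DMSO at 48 h, by -0.14 against GW3965 and by -0.22 against T0901317. The causes were not tested.

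Among counts, transporters and synthetases called with GW3965 at 24 h were 8 in DESeq2 against 5, LPL partners and ANGPTL family with T0901317 at 24 h were 1 with the replicate block and 1 with library size scaling against 2, and lipid-binding proteins with rosiglitazone at 24 h were 2 with library size scaling against 1. DESeq2 called 501 of all genes with T0901317 at 24 h against 315.

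Replicate numbers were shared between groups. Deviations of same-numbered libraries had r from -0.456 to 0.527 at 24 h (median -0.000729) and from -0.197 to 0.359 at 48 h (median 0.0374). For differently numbered libraries the medians were -0.00368 and -0.0112. Such correlations cannot tell whether same-numbered libraries shared a culture or a batch. With the replicate block, FABP6 in DMSO 48 h against 24 h was 0.34, FABP6 with T0901317 at 48 h lost its call, and no other printed call of a member changed.

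Leaving out 1 library at a time gave 2 to 4 members called with T0901317 at 48 h, FABP6 included (2 without DMSO replicate 2, 3 or 4 or T0901317 replicate 1), 1 to 2 LPL partners with T0901317 at 24 h, and lipid-binding proteins of 1 to 2 with GW3965 at 48 h, 0 to 1 with rosiglitazone at 24 h and 1 to 2 with rosiglitazone at 48 h. It turned the sign only of values that passed no test. For ACSL1 this was the rosiglitazone response at 48 against 24 h (-0.0584 to 0.0384), and for ANGPTL4 it was T0901317 at 24 h (-0.39 to 0.27). For FABP6 it was DMSO between times (-0.44 to 0.20) and rosiglitazone at 24 h (-0.0571 to 0.576) and 48 h (-0.52 to 0.24). For CD36 it was DMSO between times (-0.83 to 0.75), rosiglitazone at 24 h (-0.10 to 1.08) and 48 h (-0.90 to 0.69), T0901317 at 24 h (-0.57 to 0.67), rosiglitazone against T0901317 at 24 h (-0.0056 to 0.89), and the responses at 48 against 24 h to GW3965 (-1.14 to 0.44) and rosiglitazone (-1.20 to 0.40). For FABP2 it was GW3965 at 24 h (-0.45 to 0.57) and 48 h (-0.34 to 0.11), T0901317 at 24 h (-0.0075 to 1.05) and 48 h (-0.38 to 0.19), GW3965 against T0901317 at 24 h (-0.954 to 0.0335) and 48 h (-0.26 to 0.19), and the responses at 48 against 24 h to GW3965 (-0.75 to 0.27) and rosiglitazone (-0.65 to 0.40). FABP6 in rosiglitazone against T0901317 at 48 h lost its call in 2 of these fits (adjusted p up to 0.0126). ANGPTL4 gained a call with T0901317 at 48 h in 2 of 8 fits (edgeR adjusted p down to 0.00563). In 1 of 8 fits each, it also did with GW3965 at 24 h (0.00687) and in DMSO between the times (0.00753).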
